A study of Sus scrofa with 9 samples.

Results

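The genes described here are 34 genes that mark macrophages or blood cells in general, out of 16562 genes in the table of RNA levels. They were taken by symbol, and all 34 have a row there. Of these, 18 are defining markers of macrophages, 11 are expressed across leukocytes, and *CTSS*, *LYZ*, *CD86*, *ALOX5AP* and *TLR7* complete the set. They were measured in primary preadipocytes, cells of fibroblast shape that can turn into fat cells, isolated with collagenase from the back fat of female Rongchang piglets whose exact age is not given in the sources used here. Bulk RNA sequencing on a BGISEQ500 instrument read the RNA of each culture as a whole, in 3 groups of 3 libraries. The overexpression group received a plasmid encoding lnc*PLAAT3*-AS, a long non-coding RNA antisense to *PLAAT3*. The siRNA group was transfected with an siRNA against this RNA. The third group is the control. The labels call it a blank control and the paper a negative control, with an si-NC construct named for its cell assays, so it is not settled which of these the sequenced control cells received. All 9 cultures are labelled wild type and as harvested at day 8, after an adipogenic cocktail of insulin, IBMX and dexamethasone. By the methods, experiments were repeated independently with cells from 1 pig, so the p-values cover at most the spread between cultures of a single animal.

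Macrophages are phagocytes that arise from embryonic precursors or from blood monocytes and live in every tissue. In fat they lie between the adipocytes and among the stromal cells from which preadipocytes are isolated, and they clear dead cells and lipid. They depend on signals through the CSF1 receptor, recognise debris and microbes through scavenger receptors and Fc receptors, and are the main source of the complement protein C1q. A fraction of cells taken from fat by collagenase and grown on plastic can hold some macrophages, since these too adhere to plastic, while preadipocytes themselves express collagens and carry no CD45.

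The libraries held 16724902 to 17495882 estimated counts, and levels are given in CPM, counts scaled to the same library total with TMM factors. A group with no count allows 3 counts over its 3 libraries, or 0.0580 CPM in the control, 0.0576 in the overexpression and 0.0593 in the siRNA group. These floors, like all counting intervals below, cover counting error only. The cultures carried the genes of stromal cells: 12 of 12 stromal genes were tested, and they took 133900 to 136200 CPM in the control libraries, 156900 to 159500 in the overexpression libraries and 104400 to 112500 in the siRNA libraries. The 3 overexpression libraries lay closer together than those of the other groups. The variance between them was 1.41 to 1.60 times that of pure counting, against 5.26 to 13.01 times in the control and 4.62 to 8.39 times in the siRNA group. Whether the overexpression libraries come from separate cultures was not tested. If they do not, the p-values of this group do not cover its spread between cultures. Results that rest on the overexpression libraries were therefore also computed with these 3 summed to 1. Group labels could not be checked against the level of lnc*PLAAT3*-AS, which was not analysed here.

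The members were split by their level in the control libraries. Absent genes had at most 3 counts over the 3 control libraries (14 genes), expressed genes had a mean of 1 CPM or more (10 genes), and the other 10 lay between. Summed over the absent genes, the control libraries held 3, 3 and 1 counts, the overexpression libraries 455, 499 and 477, and the siRNA libraries 5, 6 and 8. Every overexpression library thus stood far above all 6 others. For the intermediate genes the sums were 59, 63 and 56 counts in the control, 300, 326 and 344 in the overexpression and 46, 55 and 65 in the siRNA libraries. The expressed genes summed to 2343, 2211 and 2202 counts in the control, 3476, 3526 and 3478 in the overexpression and 1776, 1844 and 1792 in the siRNA libraries. All 34 genes together took 131.8 to 138.0 CPM in the control, 243.3 to 249.6 in the overexpression and 108.6 to 114.2 in the siRNA libraries. No member was without a count in the overexpression group, while 8 were in the control group and 9 in the siRNA group. In bulk RNA, a change in the number of cells of a type and a change in the RNA per cell cannot be told apart.

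Each gene was tested in a fit across all 12721 genes that passed a filter on low counts (edgeR's quasi-likelihood test with Benjamini-Hochberg adjustment), and was called where it changed at least 2-fold with an adjusted p under 0.05. Against control, 22 of the 34 members were higher in the overexpression group and 0 were lower. Over all genes tested, 2.61% were called higher and 1.89% lower. At an unadjusted p under 0.05, 2 members were lower, and DESeq2 called 0. *CD86* rose by less than 2-fold, *CD14* fell by less than 2-fold, and *SPI1*, *ITGAM*, *TYROBP*, *ALOX5AP* and *CORO1A* did not pass. *TREM2*, *MARCO*, *AIF1*, *ADGRE1* and *LYZ* had too few counts to be tested. By class, the called members were 10 of the 14 absent genes, 8 of the 10 intermediate genes and 4 of the 10 expressed genes. Of the 22, the 10 absent genes and the intermediate genes *CSF1R*, *FCER1G*, *LAPTM5*, *SELPLG*, *ARHGDIB* and *TLR7* passed the filter only through the overexpression libraries, in which they are high. They had to differ, so their number supports nothing, and their differences from the overexpression group are given below as values without a p. The other 13 tested members pass the same filter on the control and siRNA libraries alone. Of these, 6 were called higher and 0 lower in overexpression than control, against 1.86% and 1.92% of the 12471 genes that pass that filter. Their median log2 change was 0.89, and that of the 12471 genes -0.00026. Without overlap of the libraries, 28 members, tested or not, were above and 1 below control, against 28.6% and 28.5% of all genes tested. The 28 include all 14 absent genes and intermediate genes in the fit only through overexpression, so this number supports nothing. Of the 10 expressed genes, which all pass the filter without overexpression, 6 were above and 1 below.

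The 3 chains of C1q, the protein that starts the classical complement pathway, had the highest counts among the absent genes. *C1QC* had 117, 121 and 113 counts in the overexpression libraries, 0, 1 and 0 in control, and 0 in every siRNA library. *C1QA* had 75, 82 and 100 counts in the overexpression libraries, none in control, and 1, 0 and 1 in the siRNA libraries. *C1QB* had 65, 85 and 78 counts in the overexpression libraries and none in the other 6. All 3 chains were thus present in every overexpression library and at or near 0 elsewhere, and in the pig RefSeq annotation they are direct neighbours. Over the floor, *C1QA* was at least 85.1-fold and *C1QB* at least 75.5-fold higher than in control. *C1QC* was 348.5-fold higher than its single control count, with a 95% counting interval of 62.1 to 13800. Against the siRNA libraries *C1QC* was at least 113.7-fold higher, *C1QB* at least 73.9-fold and *C1QA* 124.9-fold, with an interval of 34.2 to 1037. Per length, *C1QC* reached 7.82 ± 0.231 FPKM (SD, n = 3) in the overexpression group, *C1QA* 7.44 ± 1.22 and *C1QB* 5.89 ± 0.806, so the levels of *C1QC* and *C1QA* differed by less than their spread.

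**Figure D1:**
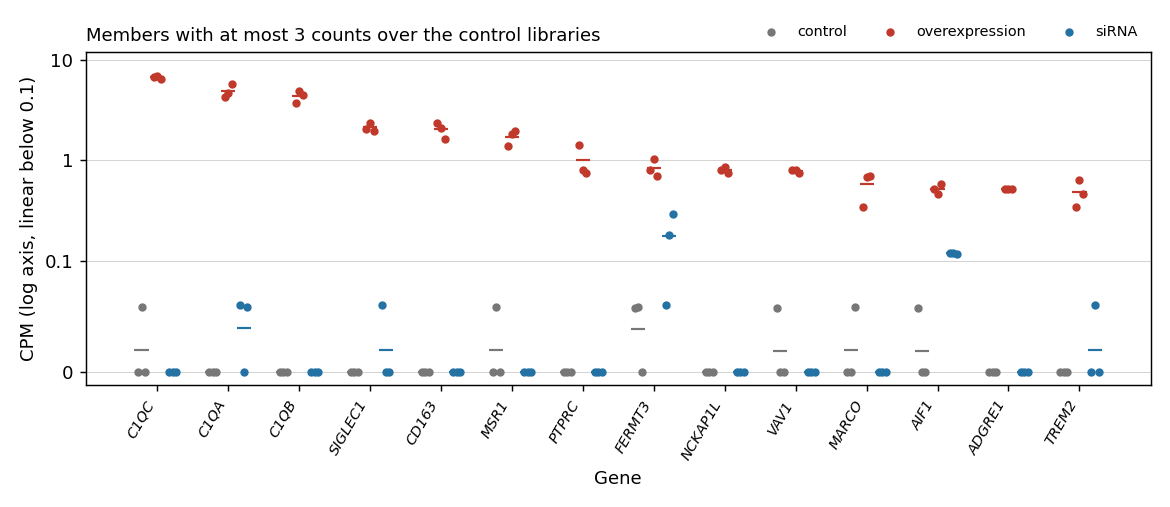
CPM of the 14 members with at most 3 counts over the control libraries, on an axis that is logarithmic above 0.1 and linear below, for each of the 3 control, 3 overexpression and 3 siRNA libraries (points) with the group mean (line). Summed over these genes the overexpression libraries reach 26.2 to 28.6 CPM, the control libraries 0.0583 to 0.175 and the siRNA libraries 0.299 to 0.466.

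Scavenger receptors, with which macrophages take up haemoglobin complexes, modified lipoproteins, glycans and microbes, gave a similar picture, with *MRC1* standing apart. *CD163*, the haemoglobin-haptoglobin receptor, had 41, 37 and 28 counts in the overexpression libraries and none in the 6 others, a level at least 35.1-fold above control and at least 34.3-fold above siRNA. *SIGLEC1*, a sialic acid receptor of tissue macrophages, had 36, 41 and 34 counts in the overexpression libraries, none in control, and 1, 0 and 0 in the siRNA libraries. It was at least 36.7-fold above control and 107.9-fold above siRNA, with an interval of 19.0 to 4299. *MSR1*, the class A scavenger receptor, had 24, 32 and 34 counts in the overexpression libraries, 0, 1 and 0 in control and none with siRNA. That was 89.4-fold above control, with an interval of 15.6 to 3568, and at least 29.2-fold above siRNA. None of these 3 receptors overlapped between the overexpression libraries and the others. *MARCO*, a related receptor of some resident macrophages, was not tested, and had 6 to 12 counts in the overexpression libraries against 1 count over all control libraries and none with siRNA.

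*MRC1*, the mannose receptor CD206, was already present in control, with 11, 13 and 15 counts. It had 59, 58 and 48 counts in the overexpression libraries and 0, 2 and 2 in the siRNA libraries, so the 3 groups were ordered without overlap. The overexpression group was at 3.17 ± 0.335 CPM (SD, n = 3) and control at 0.755 ± 0.122, a log2 change of 2.06 ± 0.247 (SE, adjusted p = 1.12e-06). In the siRNA group *MRC1* fell by 3.14 on the log2 scale (adjusted p = 3.52e-05). *CD68*, a glycoprotein of late endosomes and lysosomes, had 16, 21 and 22 counts in control, 99, 87 and 74 in the overexpression and 17, 15 and 14 in the siRNA libraries. Its overexpression libraries stood above all others, with a log2 change of 2.12 ± 0.195 against control (adjusted p = 3.11e-08). The siRNA and control libraries overlapped, with a log2 difference of -0.33 (adjusted p = 0.317). The study itself picked out *CD68* and *TREM2* from these libraries, so their direction is not independent of that choice.

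*CSF1R*, the receptor on which macrophages depend for survival, had 1, 3 and 3 counts in control, 68, 76 and 91 in the overexpression libraries and 1, 2 and 8 in the siRNA libraries. The overexpression libraries lay above all others and the remaining 2 groups overlapped. Against control the log2 change was 4.99 ± 0.372 (SE), and against siRNA it was 4.33, or 5.54 without siRNA replicate 3, which held most of the siRNA counts. The neighbouring gene in the annotation, *PDGFRB*, a receptor of stromal cells, had 34941 counts over the control and 26220 over the overexpression libraries. The ligands of the receptor are made by stroma and were high in every group. *CSF1* summed to 20835 counts in control, 20480 in overexpression (log2 difference -0.04, adjusted p = 0.679) and 9439 with siRNA, a fall of 1.11 on the log2 scale (adjusted p = 4.42e-12). *IL34*, the second ligand, had 1506, 1068 and 657 counts over the same groups. In overexpression it was lower by less than 2-fold, with a log2 change of -0.51 (adjusted p = 7.23e-05), and it fell by 1.17 with siRNA (adjusted p = 4.74e-10). Between siRNA and control the receptor did not pass (adjusted p = 0.452), while both ligands were called lower.

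The signalling adaptors differed from each other in the group where they were highest. *FCER1G*, the common gamma chain of Fc receptors, had 0, 3 and 2 counts in control, 25, 31 and 26 in the overexpression and 2, 1 and 5 in the siRNA libraries. Its log2 change against control was 3.93 ± 0.480 (SE), or 4.602 without control replicate 2, and against siRNA 3.26, or 4.03 without siRNA replicate 3. *TYROBP*, which encodes DAP12, the adaptor of TREM2 and other myeloid receptors, was instead highest with siRNA. It had 28, 34 and 51 counts in control, 32, 24 and 20 in the overexpression and 127, 88 and 94 in the siRNA libraries. Its siRNA libraries were above all others, with a log2 change of 1.48 ± 0.207 against control (adjusted p = 2.97e-06), and *TYROBP* was the 1 member called higher there. Overexpression against control gave -0.58 (adjusted p = 0.0779) with overlapping libraries, and overexpression against siRNA gave -2.06 ± 0.223 (adjusted p = 5.96e-08). Its direct neighbour in the annotation, *HCST*, the related adaptor DAP10, had 74, 36 and 63 counts over the control, overexpression and siRNA groups. *TREM2*, a lipid-sensing receptor that signals through DAP12, was not tested, and had 6 to 11 counts in the overexpression libraries against none in control and 1 over all siRNA libraries.

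Of the lysosomal genes, *CTSS* and *LAPTM5* were higher in overexpression and *LYZ* was not tested. *CTSS*, the cathepsin that trims the invariant chain of MHC class II, had 35, 33 and 20 counts in control, 114, 115 and 120 in the overexpression and 32, 28 and 24 in the siRNA libraries. It rose by a log2 change of 1.97 ± 0.177 (adjusted p = 2.23e-08) and, with siRNA, overlapped control (log2 difference -0.04, adjusted p = 0.905). *LAPTM5*, a lysosomal membrane protein of haematopoietic cells, had 2, 4 and 6 counts in control, 50, 63 and 64 in the overexpression and 3, 3 and 4 in the siRNA libraries. Only the overexpression libraries stood apart, at 3.40 ± 0.457 CPM against 0.233 ± 0.118 in control, a log2 change of 3.83 ± 0.303 (SE). *LYZ*, lysozyme, an abundant product of many macrophages, had 1 to 3 counts in the control, 3 to 5 in the overexpression and 0 to 4 in the siRNA libraries. These ranges overlapped, and at this depth no difference in *LYZ* was detectable.

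**Figure D2:**
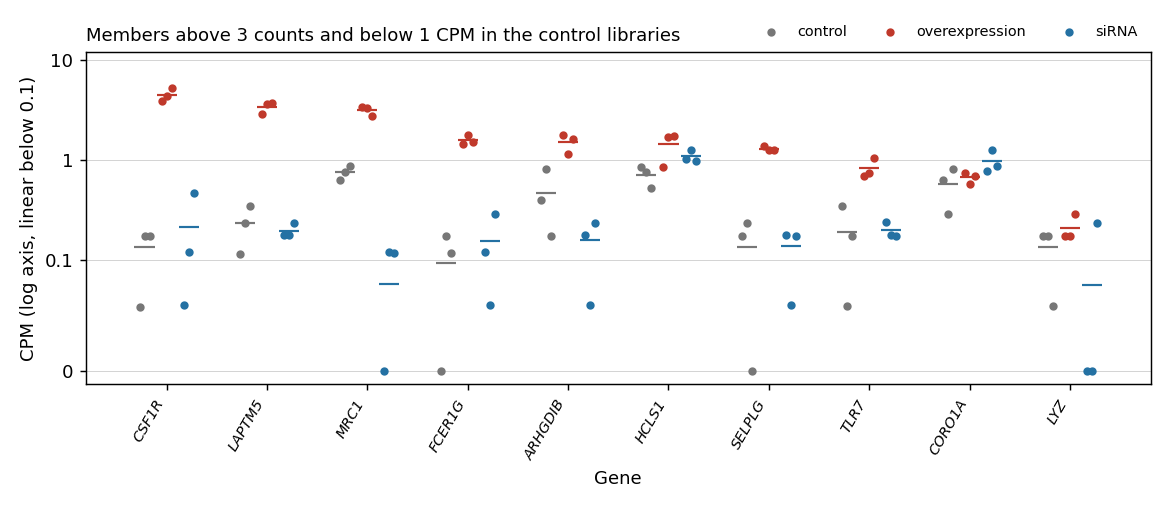
CPM of the 10 members that had more than 3 counts over the control libraries but a mean below 1 CPM there, on an axis that is logarithmic above 0.1 and linear below, by library (points) with the group mean (line). The overexpression libraries lie above every control library for 8 of the 10 genes, from *CSF1R* at 4.52 ± 0.696 CPM (SD, n = 3) to *TLR7* at 0.826 ± 0.190, and *CORO1A* and *LYZ* overlap. Over all genes tested the share above control is 28.6%. Of the 8, *CSF1R*, *FCER1G*, *LAPTM5*, *SELPLG*, *ARHGDIB* and *TLR7* are in the fit only through overexpression, so this number supports nothing. For *HCLS1*, 1 of the 8, the lowest overexpression and highest control libraries are nearly equal, at 0.8626 and 0.8607 CPM.

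Surface receptors of innate immunity were among the most abundant members, and *CD14* ran against the others. *CD14*, the co-receptor for lipopolysaccharide, which fibroblasts can also express, had 582, 592 and 723 counts in control, 475, 507 and 441 in the overexpression and 737, 859 and 793 in the siRNA libraries. The 3 groups were ordered without overlap, with the overexpression group lowest. The log2 change was -0.43 ± 0.0889 in overexpression (adjusted p = 0.000563) and 0.36 with siRNA (adjusted p = 0.000961), both short of 2-fold. *CD86*, a costimulatory ligand of antigen-presenting cells, had 1301, 1181 and 982 counts in control, 2123, 2163 and 2193 in the overexpression and 547, 516 and 575 in the siRNA libraries. It was the most abundant member per length in overexpression and control, at 65.3 ± 1.92 and 34.9 ± 3.38 FPKM (SD, n = 3), and its groups did not overlap. Against control it rose by 0.89 ± 0.0742 in overexpression (adjusted p = 7.24e-09) and fell by 1.05 ± 0.0804 with siRNA (adjusted p = 3.28e-10), and the latter was -0.98 without control replicate 1. *TLR7*, an endosomal sensor of single-stranded RNA, had 6, 1 and 3 counts in control, 12, 13 and 18 in the overexpression and 4, 3 and 3 in the siRNA libraries, with a log2 change of 2.05 against control, or 2.74 without control replicate 1.

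**Figure D3:**
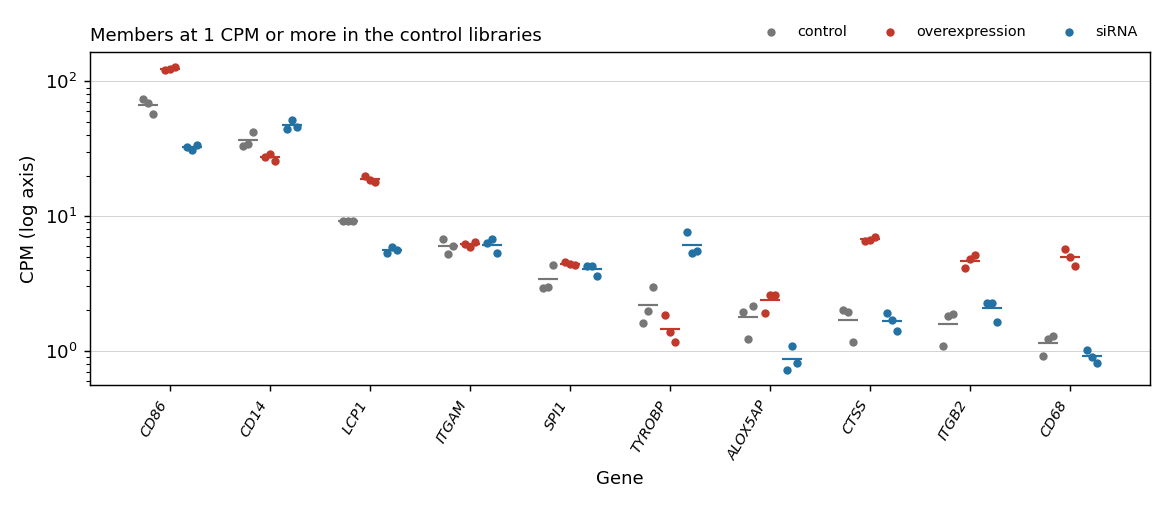
CPM of the 10 members with a mean of at least 1 CPM in control, on a logarithmic axis, by library (points) with the group mean (line). *CD86* falls from 124.4 CPM in overexpression to 66.95 in control and 32.4 with siRNA, *CD14* runs the other way from 27.3 to 36.7 and 47.2, *ITGAM* stays near 6 in all 3 groups, and *TYROBP* is highest with siRNA at 6.11.

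The myeloid transcription factor and the integrins also differed among themselves. *SPI1*, which encodes PU.1, the factor that directs myeloid development, had 51, 51 and 74 counts in control, 79, 77 and 75 in the overexpression and 71, 71 and 62 in the siRNA libraries. The overexpression libraries were above those of control, but the log2 difference of 0.38 did not pass (adjusted p = 0.0612). *ITGAM*, the CD11b chain of the complement receptor CR3, had 118, 90 and 103 counts in control, 107, 103 and 111 in the overexpression and 106, 112 and 92 in the siRNA libraries. Its groups overlapped in all 3 comparisons, with log2 differences of 0.04 (adjusted p = 0.842), 0.03 (adjusted p = 0.872) and 0.01 (adjusted p = 0.958). *ITGB2*, the CD18 chain with which CD11b pairs, had 19, 31 and 32 counts in control, 71, 83 and 88 in the overexpression and 38, 38 and 28 in the siRNA libraries. Unlike its partner it was called higher, with a log2 change of 1.55 ± 0.202 (adjusted p = 3.35e-06), and its overexpression libraries lay above all others. *FERMT3*, kindlin-3, which activates leukocyte integrins, had 1, 1 and 0 counts in control, 14, 18 and 12 in the overexpression and 1, 3 and 5 in the siRNA libraries. It was 21.8-fold above control, with an interval of 5.70 to 186, and its log2 change against siRNA was 2.203. *SELPLG*, the ligand through which leukocytes roll on selectins, had 3, 4 and 0 counts in control, 24, 22 and 22 in the overexpression and 3, 1 and 3 in the siRNA libraries, a log2 change of 3.20 against control, or 3.80 without control replicate 2.

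Of the 11 genes that all or most leukocytes share, 10 were called higher in overexpression than control and *CORO1A* did not pass, where 2.61% of all genes tested were called higher. Only *LCP1*, *HCLS1* and *ITGB2* of the 10 also pass the filter on the control and siRNA libraries alone. *PTPRC*, the leukocyte common antigen CD45, had 25, 14 and 13 counts in the overexpression libraries and none in the 6 others. It was at least 17.2-fold above control and at least 16.8-fold above siRNA. *NCKAP1L*, the haematopoietic subunit of the WAVE actin complex, had 14, 15 and 13 counts in the overexpression libraries and likewise none elsewhere, at least 13.9-fold above control and 13.6-fold above siRNA. *VAV1*, a guanine nucleotide exchange factor of blood cells, had 14, 14 and 13 counts in the overexpression libraries, 1, 0 and 0 in control and none with siRNA, where the difference was at least 13.3-fold. The gene for CD45, which defines leukocytes, was thus counted in each overexpression library. *LCP1*, the actin bundler L-plastin, was expressed in control with 159, 157 and 158 counts, and had 343, 322 and 311 in the overexpression and 89, 99 and 96 in the siRNA libraries. Its groups were ordered without overlap, with a log2 change of 1.03 ± 0.0896 in overexpression (adjusted p = 1.43e-08), 0.99 without overexpression replicate 1, and -0.71 with siRNA (adjusted p = 7.39e-06). *ARHGDIB*, a gene expressed mainly in blood cells, had 7, 14 and 3 counts in control, 31, 20 and 28 in the overexpression and 3, 1 and 4 in the siRNA libraries. Its log2 change in overexpression was 1.69 against control, or 2.36 without control replicate 2.

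*HCLS1*, a cortactin-like substrate of leukocyte kinases, and *CORO1A*, coronin 1A, were the weakest of this set. *HCLS1* had 15, 13 and 9 counts in control, 15, 30 and 30 in the overexpression and 17, 21 and 17 in the siRNA libraries, so its lowest overexpression count equalled its highest control count. Its log2 change of 1.00 (adjusted p = 0.0115) rested on single libraries, and the call was lost without control replicate 3 (0.82, adjusted p = 0.0508), without overexpression replicate 2 (0.86, adjusted p = 0.0662) and without overexpression replicate 3 (0.85, adjusted p = 0.067). *CORO1A* had 5 to 14 counts in control, 10 to 13 in the overexpression and 13 to 21 in the siRNA libraries, and did not pass in any of the 3 comparisons (adjusted p = 0.670, 0.0767 and 0.178). *ALOX5AP*, the protein that presents arachidonic acid to 5-lipoxygenase, had 34, 21 and 37 counts in control, 33, 45 and 45 in the overexpression and 12, 18 and 14 in the siRNA libraries. Its control and overexpression libraries overlapped (log2 difference 0.41, adjusted p = 0.148), and its siRNA libraries were below both. Of the remaining macrophage markers, which were not tested, *AIF1*, an actin-binding protein, had 8 to 10 counts in the overexpression libraries against 1 over the control libraries and 2 in each siRNA library, and *ADGRE1*, the F4/80 receptor of mouse macrophages, had 9 in each overexpression library and none elsewhere. In the annotation *AIF1*, *HCLS1*, *FERMT3* and *TLR7* overlap another gene, and since the sources used here do not give the use of strand in counting, their counts are uncertain. The overlapping genes *LST1*, *FBXO40*, *TRPT1* and *TLR8* had 7, 0, 211 and 5 counts over the overexpression libraries.

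The siRNA group was compared with the same 3 control libraries, so a chance level of these enters both comparisons. With siRNA 1 member was called higher and 4 lower, while 7.67% of all genes tested were called higher and 7.52% lower. The gene called higher was *TYROBP*, and those called lower were *MRC1*, *CD86*, *ALOX5AP* and *ARHGDIB*. *CD14* rose and *LCP1* fell by less than 2-fold, and the other 22 tested members did not pass. Without overlap, 5 members were above control and 4 below, against 30.7% of all tested genes in each direction. Calls near the thresholds depended on single libraries. *ALOX5AP* fell by 1.03 on the log2 scale (adjusted p = 0.00326), and its value was -0.97, -0.87, -0.91 and -0.98, under 2-fold, without control replicate 1, control replicate 3, siRNA replicate 1 and siRNA replicate 3. *ARHGDIB* fell by 1.51 (adjusted p = 0.0376), and the call was lost without control replicate 2 (-0.84, adjusted p = 0.304), siRNA replicate 1 (-1.61, adjusted p = 0.0682) or siRNA replicate 2 (-1.14, adjusted p = 0.146). *FERMT3* passed without siRNA replicate 1 (2.41, adjusted p = 0.0285) and *CORO1A* without control replicate 3 (1.05, adjusted p = 0.0290). The median log2 change over the 13 members that pass the filter without the overexpression libraries was 0.027, and 0.0051 over all genes that do.

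Overexpression and siRNA were then compared directly, which uses no control library. Of the 34 members, 23 were called higher in overexpression and 1, *TYROBP*, lower, against 9.54% and 9.17% of all genes tested. Of the 13 members that pass the filter without the overexpression libraries, 7 were called higher and 1 lower, against 8.40% and 9.33% of all genes that do, with a median log2 change of 1.17 against -0.019. *CD14* was lower by less than 2-fold (-0.79, adjusted p = 8.37e-08), and *SPI1*, *ITGAM*, *HCLS1* and *CORO1A* did not pass. Libraries did not overlap for 28 members that were above and 3 that were below, where the shares over all genes tested were 35.9% and 36.6%. These 28 again include all 14 absent genes, so their number supports nothing. Of the 10 expressed genes, 7 were above and 2 below. *MRC1* differed by 5.20 on the log2 scale (adjusted p = 1.86e-10). *CD86* differed by 1.94 ± 0.0791 (adjusted p = 6.42e-15) and *LCP1* by 1.74 (adjusted p = 1.27e-12). Of the members in the fit only through overexpression, *LAPTM5* differed by 4.06, *ARHGDIB* by 3.21 and *SELPLG* by 3.17.

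**Figure D4:**
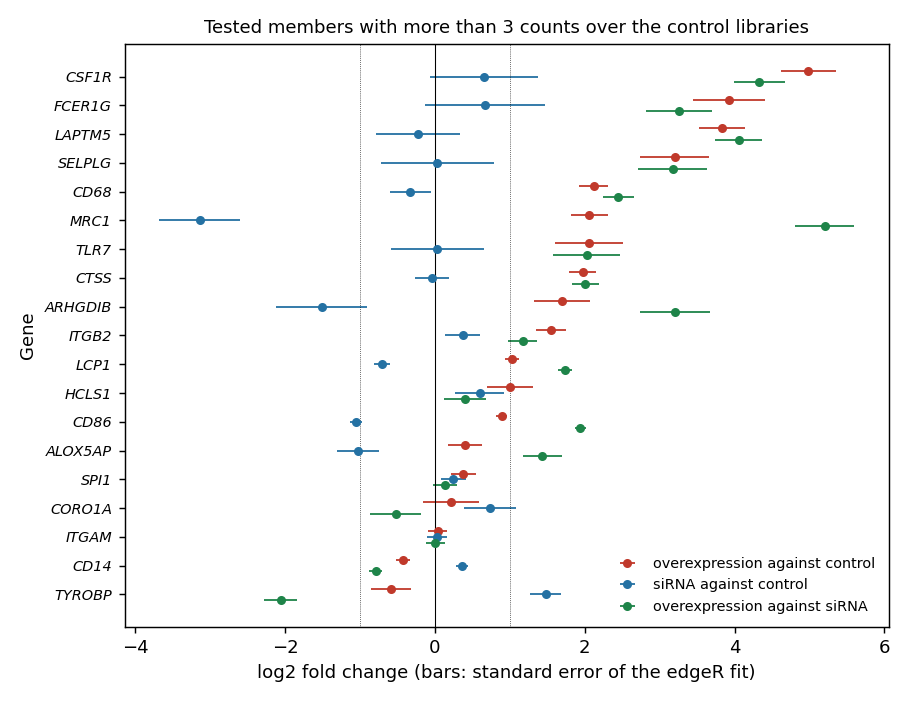
Log2 fold changes (points) with the standard error of the edgeR fit (bars) for the 19 tested members with more than 3 counts over the control libraries, in overexpression against control, siRNA against control and overexpression against siRNA, with dotted lines at 2-fold. *CSF1R* is highest in overexpression against control at 4.99, *MRC1* spans from -3.14 with siRNA to 5.20 in overexpression against siRNA, and *TYROBP* has the opposite order with 1.48 and -2.06.

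How often any gene that is absent in control appears in overexpression was counted over the whole table. Of 16562 genes, 2333 had at most 3 counts over the control libraries. Of these, 56 (2.4%) reached at least 20 counts over the overexpression libraries, and 14 of the 56 were the absent members described here. At least 40 counts were reached by 23 genes (0.986%), 10 of them members, and at least 100 counts by 8 genes (0.343%), of which 5 were members. In the siRNA group 49, 25 and 9 genes reached these limits. The members were chosen with earlier results of these data known, so their share among the genes that reach these limits supports nothing.

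Genes outside the set that mark the same or other cells were read from further lists, whose counts stand against the shares of all genes tested given above, 2.61% higher and 1.89% lower in overexpression and 7.67% higher and 7.52% lower with siRNA. Of 46 other myeloid genes 41 were in the table and 19 were tested, of which 10 were higher and 0 lower in overexpression than control. Of the 10, at least *VSIG4*, *MPEG1*, *FCGR3A* and *CD53* passed the filter only through the overexpression libraries, as did *ACP5* and *SLA-DRA* below. Their calls support nothing. Of the 20 with at most 3 control counts, 14 were above that floor in overexpression and 1 with siRNA, where 399 (17.1%) and 367 of the 2333 such genes in the table were. Over the control, overexpression and siRNA groups, *FCGR3A*, an Fc receptor, had 1, 119 and 4 counts, *VSIG4*, a complement receptor of resident macrophages, had 0, 49 and 0, *CD53*, a leukocyte tetraspanin, had 1, 46 and 2, and *MPEG1*, a macrophage pore-forming protein, had 0, 41 and 0, so these too were high in overexpression alone. With siRNA, 4 genes of this list were called higher and 0 lower. These were *PLEK*, pleckstrin, with 25, 44 and 1893 counts, *F13A1*, a coagulation factor chain, with 9, 2 and 121, *NCF1*, an NADPH oxidase subunit, with 29, 75 and 223, and *TLR4*, the lipopolysaccharide receptor, with 203, 469 and 511. Of these, *NCF1* and *TLR4* were also called higher in overexpression. Among 20 genes of lipid-laden and lysosome-rich macrophages, 19 were tested, and 4 were called higher and 0 lower in overexpression. *ACP5*, a phosphatase of macrophages and osteoclasts, had 2, 165 and 1 counts. *GPNMB*, a lysosomal glycoprotein, was expressed in control and rose by 1.48 on the log2 scale (adjusted p = 1.22e-12), *MMP9*, a gelatinase, by 2.18 (adjusted p = 0.00711) and *CD36*, a fatty acid receptor whose counts are partly not whole and hence uncertain, by 2.11 (adjusted p = 3.17e-11). The study itself picked out *CD36* from these libraries, so its direction is not independent of that choice. With siRNA 7 of this list were higher, among them *CTSL*, a cathepsin, by 2.87 (adjusted p = 1.74e-08). *CD36* was also among the 7, by 1.11 (adjusted p = 4.95e-07), so it was called higher in both groups. With siRNA 1 gene, *SPP1*, osteopontin, was lower, by a log2 change of -4.54 (adjusted p = 4.15e-06). Of 11 genes of MHC class II presentation 6 were tested and 1 was higher in overexpression, *SLA-DRA*, a class II alpha chain, with 1, 45 and 1 counts. Of 4 growth factors and attractants for macrophages made by stroma, 0 were called in overexpression, where *IL34* was lower by less than 2-fold. With siRNA *CCL2*, the monocyte attractant, rose by 1.93 (adjusted p = 1.79e-15). *CSF2*, which drives monocyte differentiation, passed the filter only through the siRNA libraries, so its call as higher there supports nothing. It had 9, 0 and 62 counts over the control, overexpression and siRNA groups.

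Markers of further cell types were also read, and their part in the results above was not tested. T and NK cell genes, 6 in the table, summed to 2.30 to 3.33 CPM in control, 3.62 to 4.59 in overexpression and 2.56 to 3.06 with siRNA, and the 1 tested, *CD247*, did not pass (log2 difference 0.38, adjusted p = 0.0877). *NKG7*, a granule protein of NK and cytotoxic T cells in this list, was not tested, and had 10, 16 and 8 counts in the overexpression libraries, 0, 0 and 1 in control and none with siRNA, the same pattern as the absent members. The 6 B cell genes summed to 26, 35 and 45 counts over the control, overexpression and siRNA groups, and the 3 mast cell genes to 26, 54 and 7. Neutrophil genes summed to 3.21 to 4.90 CPM in control, 1.33 to 1.66 in overexpression and 3.22 to 15.4 with siRNA, and 0 of the 3 tested were called against control in either direction. Dendritic cell genes summed to 187, 199 and 530 counts, most of the last from *CCR7*, a chemokine receptor, with 21, 10 and 460. Platelet genes summed to 465, 345 and 520 counts. Endothelial genes summed to 52.3 to 58.6 CPM in control, 39.6 to 44.9 in overexpression and 54.3 to 59.0 with siRNA, and of 2 tested 0 were called. Most of the 2893 control counts came from *EGFL7* and *PECAM1*, with 1868 and 936, and no other gene of this list had more than 26. Adipocyte genes summed to 149.4 to 166.2, 149.4 to 156.0 and 143.1 to 162.6 CPM. There *PLIN1*, which coats lipid droplets, passed the filter only through the overexpression libraries, so its call as higher there supports nothing. It had 12, 42 and 2 counts over the control, overexpression and siRNA groups. With siRNA 4 adipocyte genes were lower, *PLIN1* among them. The 18 macrophage-defining markers summed to 46.4 to 58.0 CPM in control, 76.1 to 80.4 in overexpression and 62.5 to 69.1 with siRNA, with *CD14* the largest part in control, and 6, 0 and 6 of them had no count. The 11 pan-leukocyte genes summed to 12.5 to 13.4, 35.0 to 35.3 and 9.97 to 11.2 CPM, with 2, 0 and 3 of them without a count.

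**Figure D5:**
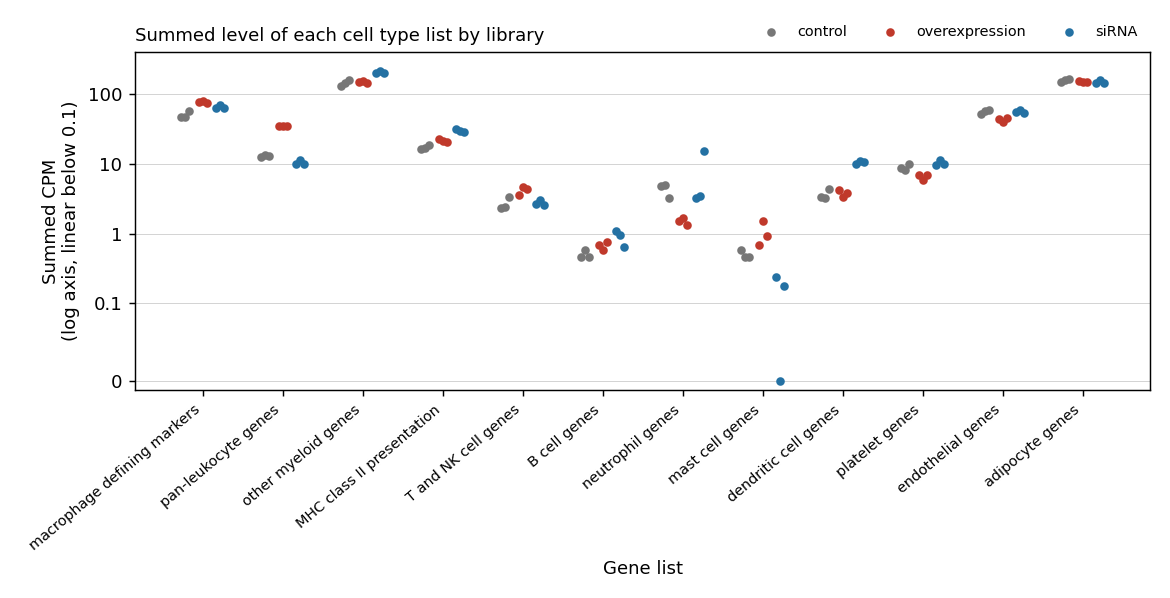
Summed CPM of 12 lists of cell type genes in each library (points), on an axis that is logarithmic above 0.1 and linear below, for the control, overexpression and siRNA groups. The pan-leukocyte list is 35.0 to 35.3 CPM in overexpression against 12.5 to 13.4 in control and 9.97 to 11.2 with siRNA. The other myeloid list is highest with siRNA at 199.4 to 213.3, and 1 siRNA library lifts the neutrophil list to 15.4. In that myeloid list *CYBA* and *PLEK* have means of 89.35 and 37.41 CPM with siRNA, against 64.03 and 0.4833 in control, while *VSIG4* and *MPEG1* have no count with siRNA.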

How the data were processed

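By the methods, the authors used FastQC 0.11.9 for read quality and HISAT 2.2.1 for alignment. Per the labels rRNA was removed, whereas the methods describe cDNA made with oligo(dT). Not given in the sources used here are the counting tool, genome build, annotation, strand use and filters. The authors deposited estimated counts per gene and library, of which 5.38% are not whole, and FPKM values beside them, which are scaled to gene length and library size. All 18 value columns were mapped to the 9 libraries. All counts of the 34 members are whole.

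After rounding the estimated counts, levels were computed as CPM with TMM factors, as mean ± SD of 3 libraries, and FPKM where genes are compared with each other. Tests used R 4.3.3 and edgeR 4.0.16 (filterByExpr, robust quasi-likelihood F test, 1 fit of 9 libraries, Benjamini-Hochberg over 12721 genes, called at adjusted p under 0.05 and at least 2-fold). The biological coefficient of variation was 0.0607. Standard errors come from this fit. Against a group with no count, a fold is a bound over a floor of 3 counts per group, and against 1 to 3 counts it is a ratio with a 95% counting interval. PCR reads are not independent molecules, so these cover counting error only.

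The members and the 16 gene lists were chosen with earlier results of these data known. Every member is accounted for. Counts per library are given for members called in any comparison or with a mean of at least 1 CPM in any group, and other members by range. From other lists at most 4 genes with the largest called changes are named. Named after their values were seen were *HCST*, *PDGFRB*, *CD247*, *NKG7*, *EGFL7*, *PECAM1*, *CYBA* and the overlapping genes. Genes of 1 list, erythroid genes, were not analysed here. Names and gene order come from RefSeq's Sscrofa11.1 table, which holds all 34 members. Which genes pass the filter on the control and siRNA libraries alone was computed after the values were seen. No sequence is shown, as no sequence table was at hand. Alternatives were DESeq2 1.42.0, library totals without TMM, no filter, a filter at 1 CPM, the 2 compared groups only, the replicate number as a block, limma 3.58.1 on log2(FPKM + 1) and log2(FPKM + 0.1), no fold threshold, leaving out single libraries and, added after seeing the data, the overexpression libraries summed to 1.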

Additional observations from a re-analysis of the deposited data

How the results depend on the processing

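Of the members called higher in overexpression than control, 22 by the fit described, limma on log2(FPKM + 1) called 8, where the pseudocount flattens low genes by construction. No filter gave 26 and a filter at 1 CPM gave 17. With siRNA the 4 members called lower became 0 with limma on log2(FPKM + 1) and 1 on log2(FPKM + 0.1). Of the 23 called higher in overexpression than siRNA, limma on log2(FPKM + 1) called 11. Of the 13 members that pass the filter without the overexpression libraries, 6 were among the 22 and 7 among the 23. The others called are in the fit only through overexpression, so how steady these counts are, here and below, supports nothing for them. Counts for the 13 alone are not given by alternative. Without the fold threshold the counts were 1 lower in overexpression than control, 2 higher with siRNA than control and 2 lower in overexpression than siRNA. Leaving out 1 library gave 1 to 2 members higher and 2 to 4 lower with siRNA, and 21 to 23 higher in overexpression than control. With expressed genes taken from 5 CPM on, 4 members were expressed in place of 10. With the overexpression libraries summed to 1, the log2 change of *CD68* against control was 2.13, where the main fit gave 2.12. There the spread comes from the other 2 groups and the lone sample is assumed to vary like them, so no count of calls is read from it. The depth of 16724902 to 17495882 counts limits genes with few counts, 5 members of which could not be tested.

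Single members near 0 changed sign when 1 library was left out. The range of the log2 difference was -0.052 to 0.12 for *ITGAM* and -0.10 to 0.53 for *CORO1A* in overexpression against control, and -0.081 to 0.078 for *ITGAM* in overexpression against siRNA. With siRNA against control it was -0.56 to 1.09 (*CSF1R*), -0.56 to 0.18 (*LAPTM5*), -0.24 to 0.089 (*CTSS*), -0.061 to 0.12 (*ITGAM*), -0.10 to 1.34 (*FCER1G*), -0.53 to 0.63 (*SELPLG*) and -0.39 to 0.71 (*TLR7*), and the cause was not tested. *ARHGDIB* with siRNA also missed the threshold with DESeq2 (adjusted p = 0.0501) and with the overexpression libraries summed (adjusted p = 0.0524).

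Groups share replicate numbers, but libraries with the same number did not deviate together (correlations of -0.098 to 0.123), so the numbers do not pair them. With the replicate block 21 members were higher and 0 lower in overexpression than control, 1 higher and 4 lower with siRNA, and 23 higher and 1 lower in overexpression than siRNA. The member lost was *HCLS1*, at 0.99 on the log2 scale.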
